A study of Mus musculus with 96 samples.

Results

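Skeletal muscle was compared with liver and cerebral cortex in male C57BL/6 mice fed ad libitum (AL), and the genes described here were chosen because their mRNA was higher in muscle than in each of the other two tissues. The comparison used the 21 RNA-seq libraries of mouse numbers 2 to 8, 7 per tissue, out of 96 libraries in the series. Of the 56748 genes in the count table, 19557 had enough reads to be tested in these libraries, and 4365 of them (22.3%) were higher in muscle in both comparisons. The study set AL feeding against intermittent fasting (IF), in which food was withheld 16 h a day. Its male mice ate normal chow, entered the feeding groups at 6 weeks of age and stayed in them for 4 months. Further libraries come from male AL mouse 1, male IF mice 9 to 16, female AL mice 25 to 32 and female IF mice 33 to 40, with 3 tissues per mouse number. Age and strain are stated for the male mice, and the labels of the female libraries give sex and diet alone. Which muscle was taken is not stated, and the labels do not say that libraries with a shared number come from the same animal.

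Muscle fibres are long cells with many nuclei, filled with sarcomeres in which myosin thick filaments pull on actin thin filaments once calcium leaves the sarcoplasmic reticulum. Fast fibres carry type II myosins and rebuild ATP from phosphocreatine and glycogen, whereas slow fibres carry a different set of myosin and troponin forms and depend more on oxidative metabolism. Hepatocytes and neurons hold other products of many of the same enzyme families.

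Muscle libraries held 31797545 to 46889676 counted reads each (median 36235696). Liver libraries held 26097314 to 44763638 (median 36064765), and those of cortex 32373437 to 39314534 (median 36820158). Levels are given as CPM, counts per library scaled to a common size and adjusted by the trimmed mean of M-values (TMM), and levels of different genes are compared only as CPM per kb of the gene length in the authors' table. The labelled tissues were checked against defining markers. The summed level of 8 fibre markers was 205600 to 229500 CPM in muscle (median 212500), against a median of 2.04 CPM in liver and 15.2 CPM in cortex. Summed over 8 hepatocyte markers, the medians were 74620 CPM in liver, 6.02 CPM in muscle and 1.60 CPM in cortex. The 8 neuronal markers summed to a median of 5496 CPM in cortex and 4.78 CPM in liver. Their median sum in muscle was 573 CPM, nearly all of it Camk2a, a calcium-dependent kinase gene (564 CPM), while 1 of the other markers was at 0 and 1 more exceeded 1 CPM. No library stood against its tissue label.

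Muscle exceeded liver in 7795 genes (39.9% of those tested) and was below it in 7498 (38.3%). Against cortex, muscle was higher in 6925 genes (35.4%) and lower in 8787 (44.9%). Both comparisons share the muscle libraries. In both at once, 4365 genes were higher and 4011 (20.5%) lower, and the lowest muscle library lay above the highest liver and cortex library in 3473 of all genes tested (17.8%). Of the 4365 genes higher in muscle, 3460 met that criterion. The median log2 fold change over all genes tested was 0.04 against liver and -0.25 against cortex. With library totals in place of TMM these medians were -0.11 and -1.29. Higher calls then made up 22.2% of the calls against cortex (3628 higher and 12679 lower), compared with 44.1% with TMM, and 2466 genes remained higher in both. Bulk RNA cannot tell more cells of a type from more RNA per cell, and this holds for every level below.

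Because small differences pass the test with 7 libraries per tissue, genes at least 8-fold higher in both comparisons (log2 fold change of 3 or more) were counted apart. There were 869 (4.44% of those tested), of which 855 had no muscle library within the range of the other two tissues. Together the 869 genes took 45.5% ± 0.801 (SD, n = 7) of all counted reads in muscle, 0.330% ± 0.0405 in liver and 1.17% ± 0.0210 in cortex. The 4365 genes took 73.3% ± 0.712, 10.2% ± 0.765 and 20.2% ± 0.426. By mean level in muscle, 304 of the 869 genes were at 100 CPM or more, 524 between 1 and 100 CPM and 41 under 1 CPM. No read was counted in any liver library for 198 of them and in any cortex library for 63. Against a tissue at 0 a fold change is given as a lower bound, computed against 3 counts over the 7 libraries, and for the 221 genes at 0 in at least 1 tissue this bound was never under 8-fold. The genes nearest the threshold inside it were Atf3, Chrac1 and Myl12a, with smaller log2 fold changes of 3.0004, 3.0101 and 3.0133. Just outside lay Sncg at 2.99, Adipor1 at 2.98 and Nol3 at 2.97.

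**Figure D1:**
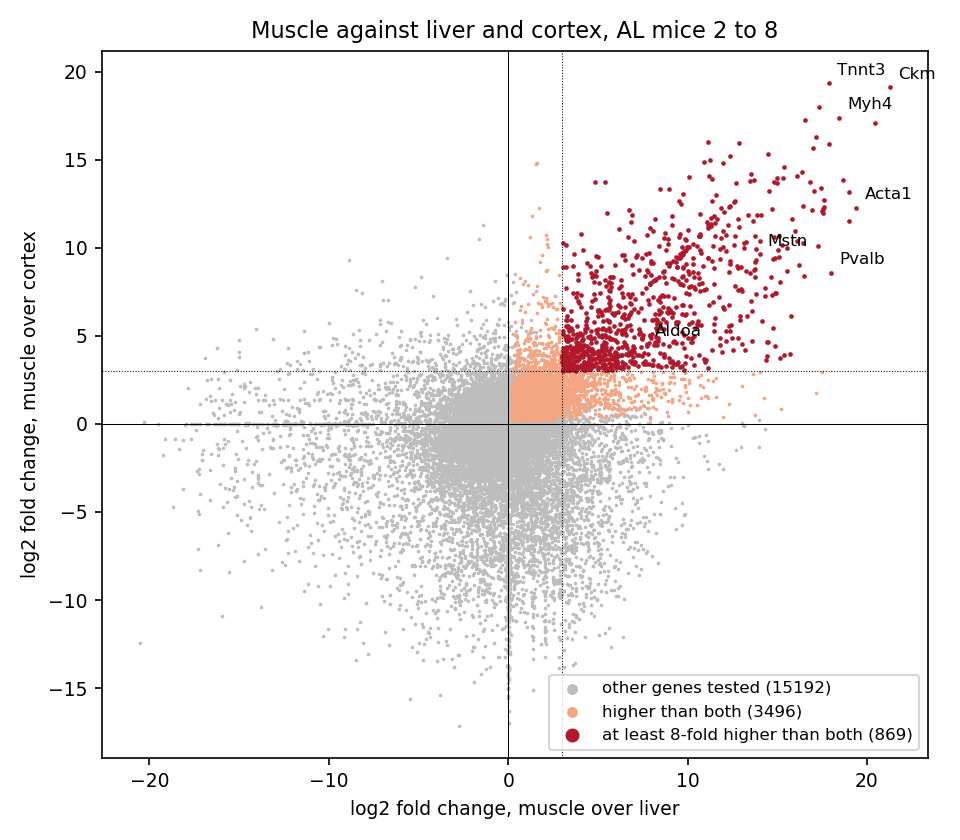
Log2 fold change of muscle over liver (horizontal axis) and of muscle over cortex (vertical axis) for the 19557 genes tested, 1 point per gene, with dotted lines at 3. Red points are the 869 genes at least 8-fold higher in both comparisons and orange points the other genes higher in both, and both sets lie at the upper right by construction.

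Genes of the thick filament and M-band, the parts of the sarcomere built on myosin, were among those farthest apart. Of 19 listed genes, 17 were higher in both comparisons and 16 at least 8-fold, and the median log2 fold change was 13.77 over liver and 10.07 over cortex (13.72 over liver with the 4 genes without liver reads at their bounds, a step that changed no median of the later lists unless stated). Myh4, the type IIB fast myosin heavy chain, ranged from 44490 to 52730 CPM in muscle (median 50500), from 0 to 0.478 CPM in liver and from 0.0198 to 0.375 CPM in cortex. The lowest muscle library was thus far above every other library. Its log2 fold change was 18.43 ± 0.61 (SE) over liver and 17.38 ± 0.57 over cortex (adjusted p = 5.58e-15 and 7.83e-15). The fast light chains followed. Mylpf, the regulatory light chain, had 14550 to 16810 CPM in muscle (median 15950), with at most 2.29 CPM in liver and 1.03 CPM in cortex. Myl1, the essential light chain, had 16310 to 18950 CPM (median 18130), with at most 0.429 and 0.469 CPM in the other two. Per length Mylpf stood at 15050 ± 747 CPM per kb (SD), Myl1 at 8640 ± 433 and Myh4 at 8202 ± 568. The last pair do not differ beyond their spread. Ttn, the giant spring protein titin, was at 6178 ± 746 CPM but, with a length of 117334 bases, at 52.7 ± 6.36 CPM per kb.

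Among the myosin heavy chains, Myh4 made up 93.4% ± 1.80 of the summed level per length in muscle (lowest 90.4%, highest 95.2%). Myh1, the type IIX chain, made up 4.46% ± 0.834, and Myh2, the type IIA chain, 1.96% ± 1.09 (0.852% to 3.37%). Myh7, the slow chain, held a mean of 0.180%, and its share ran from 0.000678% to 0.4925% between mice. These shares are ratios within a library and do not depend on its scaling. The 2 listed chains that were not higher in both comparisons were low everywhere. Myh3, the embryonic chain, had 0.320 to 5.01 CPM in muscle (median 0.750) and 2.36 to 4.36 CPM in cortex, and fell by 1.48 ± 0.43 on the log2 scale against cortex (adjusted p = 0.00442). Without mouse number in the fit the value was -0.82 ± 0.45 (adjusted p = 0.0961), and Myh3 was then not called. Myh6, a cardiac chain, had 1.22 to 3.26 CPM in muscle and 1.01 to 2.18 CPM in cortex, so that the ranges overlapped. Its log2 fold change over cortex was 0.88 ± 0.60 (adjusted p = 0.186), 0.90 ± 0.33 without mouse 4 (adjusted p = 0.0283) and -0.17 with library totals.

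Thin filament genes gave a like picture, with 17 of 18 higher in both comparisons, each by at least 8-fold. Their median log2 fold change was 10.11 over liver and 10.53 over cortex. Acta1, skeletal actin, was the most abundant transcript per length at 37750 ± 1334 CPM per kb (SD, n = 7). In muscle it ranged from 54950 to 60440 CPM (median 57760), in liver from 0 to 0.276 CPM and in cortex from 8.53 to 14.2 CPM. Cortex thus carried a low but steady Acta1 level that liver lacked. The log2 fold change was 19.40 ± 0.46 over liver and 12.28 ± 0.35 over cortex (adjusted p = 5.88e-17 and 9.40e-16). Tnnt3, fast troponin T, which ties the troponin complex to tropomyosin, had 29470 to 39590 CPM in muscle (median 32900) and at most 0.286 CPM in liver and 0.119 CPM in cortex. Its log2 fold changes of 17.86 ± 0.41 and 19.36 ± 0.43 gave the largest smaller change among genes with over 3 reads in each tissue, which leaves out Ckm. Tnni2, fast troponin I, the inhibitory subunit, was at 16760 to 21510 CPM (median 18350), against at most 0.291 and 0.443 CPM.

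The exception was Tpm3, a tropomyosin of slow fibres and of many other cells. It ranged from 32.95 to 490.0 CPM in muscle (median 192), from 53.1 to 77.2 CPM in liver and from 116 to 137 CPM in cortex, so that muscle libraries lay on both sides of the other tissues. The log2 fold change over cortex was 0.46 ± 0.34 (adjusted p = 0.224). Without mouse 8 it was 0.77 ± 0.26 (adjusted p = 0.0141), and with library totals -0.61. Tnnc2, fast troponin C, is the calcium sensor that pairs with Tnnt3 and Tnni2, but 158 reads in all were counted for it over the 7 muscle libraries (0.519 to 1.003 CPM). On GRCm39 it lies at chr2:164619081-164621887 on the minus strand, and Ube2c on the plus strand covers 1662 of these 2807 bases and had 1386 muscle reads. How the counting treated strand and reads shared between genes is not stated, so the level of Tnnc2 is uncertain.

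**Figure D2:**
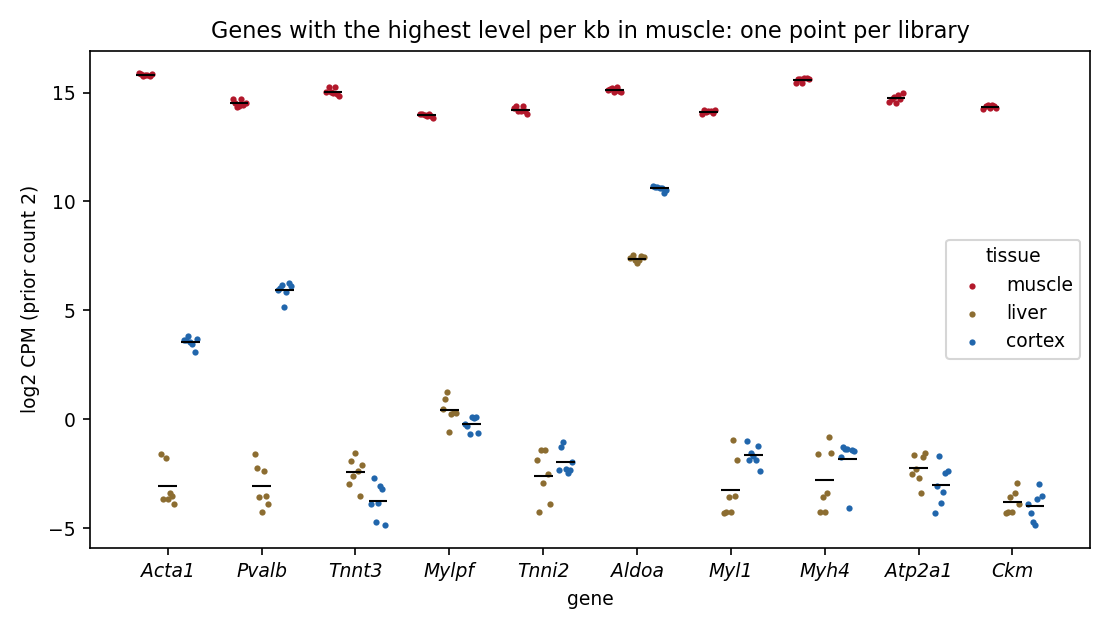
Log2 CPM (prior count 2) of the 10 protein-coding genes with the highest level per kb in muscle among those at least 8-fold higher in both comparisons, 1 point per library and 7 libraries per tissue, with a line at each mean. Muscle points lie above all liver and cortex points for each gene, and the cortex points of Acta1, Pvalb and Aldoa lie above those of most other genes.

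At the Z-disc, where thin filaments of neighbouring sarcomeres are anchored, all 22 listed genes were higher in both comparisons and 21 at least 8-fold, with medians of 12.09 over liver and 10.56 over cortex. Tcap, which caps titin at the Z-disc, was highest per length at 6193 ± 977 CPM per kb, followed by Actn3, the actinin of fast fibres, at 5630 ± 438. Actn3 had 14410 to 17420 CPM in muscle (median 16810) and at most 0.633 CPM in liver and 1.09 CPM in cortex, a log2 difference of 16.37 ± 0.45 and 14.30 ± 0.41. Myoz1, a partner of calcineurin at the Z-disc, had no read in any liver library and at most 0.0857 CPM in cortex. With 4227 to 5160 CPM in muscle (median 4609) it was at least 330500-fold above liver, and 17.07 ± 0.43 above cortex on the log2 scale. Des, the intermediate filament desmin, had 6907 to 8737 CPM in muscle, 9.53 to 17.7 CPM in liver and 1.98 to 3.84 CPM in cortex. The member left under 8-fold was Csrp3, a sensor of stretch, at 18.7 to 277 CPM in muscle and 18.1 to 40.6 CPM in liver, with overlapping ranges. Cryab, a small heat-shock protein that protects desmin, was also well expressed in cortex (89.9 to 155 CPM), below the 886 to 1599 CPM of muscle.

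Excitation-contraction coupling turns the action potential into calcium release. Of 25 listed genes, 23 were higher in both comparisons and 19 at least 8-fold (medians 11.59 over liver and 7.82 over cortex). Atp2a1, the fast calcium pump SERCA1 that refills the sarcoplasmic reticulum, had 23630 to 32800 CPM in muscle (median 26650), with at most 0.270 CPM in either other tissue. Its log2 fold changes were 17.34 ± 0.39 and 17.97 ± 0.40. Pvalb, a soluble calcium buffer that speeds relaxation, was at 21030 to 26800 CPM in muscle (median 23230) and at most 0.276 CPM in liver. In cortex, where it marks a class of inhibitory neurons, it reached 35.7 to 75.8 CPM, so that the log2 fold change was 18.02 ± 0.46 over liver and 8.59 ± 0.32 over cortex. The release channel Ryr1 showed 3643 to 4511 CPM in muscle, up to 0.906 CPM in liver and 9.01 to 17.1 CPM in cortex. Casq1, which stores calcium in the lumen, showed 3556 to 4522 CPM against at most 2.30 and 0.899 CPM.

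In this list 2 genes were not higher in both comparisons. Atp2a2, the SERCA2 pump of slow fibres, heart and most other cells, had 32.3 to 421 CPM in muscle (median 165), 142 to 262 CPM in liver and 311 to 391 CPM in cortex. It fell by 1.16 ± 0.33 against cortex on the log2 scale (adjusted p = 0.00378), and against liver the value was -0.31 ± 0.33 (adjusted p = 0.398). Pln, the pump inhibitor phospholamban, was at 0.540 to 2.19 CPM in muscle and overlapped liver (0.143 to 2.75 CPM) and cortex (0.450 to 1.14 CPM). Its log2 fold change was -0.20 ± 0.49 over liver, positive in the fits without mouse 4 and without mouse 7, and 0.63 ± 0.47 over cortex, where library totals gave -0.43. Of the other pump regulators, Mrln (myoregulin) had 93.9 to 144 CPM in muscle and Sln (sarcolipin) 3.40 to 17.1 CPM, with no liver reads for either. They were at least 9071-fold and at least 639-fold above liver.

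Every one of 23 genes for phosphagen, glycogen and glycolysis was higher in both comparisons, 20 of them at least 8-fold, with medians of 8.69 over liver and 6.29 over cortex. Aldoa, the glycolytic aldolase, led per length with 12250 ± 831 CPM per kb. It had 32860 to 39460 CPM in muscle (median 35160), 144 to 184 CPM in liver and 1350 to 1651 CPM in cortex, and its log2 fold changes of 7.74 ± 0.16 and 4.52 ± 0.13 were modest beside those of the contractile genes. Ckm, the creatine kinase that regenerates ATP from phosphocreatine, had 19510 to 21750 CPM in muscle (median 21160), 1 read over the 7 liver libraries and 13 over those of cortex. Its log2 fold change over cortex was 19.13 ± 0.36. Pygm, muscle glycogen phosphorylase, had 10930 to 13850 CPM against 1.38 to 3.82 CPM in liver and a mean of 24.3 CPM in cortex. Mb, the oxygen store myoglobin, had 1433 to 3013 CPM against at most 0.472 and 0.198 CPM. Ampd1, which deaminates AMP, and Ckmt2, the mitochondrial creatine kinase, had 1274 to 1688 and 1334 to 1834 CPM, with at most 0.261 CPM in any liver or cortex library. Slc2a4, the insulin-responsive glucose carrier GLUT4, had 775 to 900.3 CPM against at most 0.961 and 1.13 CPM. The 3 members under 8-fold were Pkm and Pgk1 against cortex and Gpd1 against liver. Gapdh, a common reference gene, had 1374 to 2516 CPM in muscle, 42.5 to 563 CPM in liver and 12.1 to 226 CPM in cortex. Its spread within liver and cortex was wide and its log2 fold changes were 3.15 ± 0.66 and 4.98 ± 0.71.

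Many of these enzymes come in forms made by separate genes, and 23 families with a form known from muscle were compared by each form's share of the family's level per kb. Being ratios within a library, the shares do not change with the scaling. The form known from muscle led in muscle in 21 families. The leading form was a different one from that of muscle in 19 families in liver, in 18 in cortex and in 15 in both. Some of these leads rest on few reads and are not resolved, as for Ryr1 in liver (56.0% ± 40.3 of a family at 0.0275 CPM per kb) and Fbp1 in cortex (79.4% ± 20.4 of 0.103 CPM per kb). Pygm held 99.95% ± 0.0141 of its family in muscle, 2.11% in liver, where Pygl led with 96.2%, and 27.2% in cortex, where Pygb led with 71.6%. Ckm held 99.9% in muscle but 0.0426% in liver and 0.00198% in cortex, where Ckb led. Eno3, muscle enolase, held 99.5% in muscle, 31.9% in liver and 1.45% in cortex. Gys1, a glycogen synthase, held 99.9% in muscle and 4.02% in liver, but also 99.1% in cortex. The glucose carriers had a different leading form in each tissue, with Slc2a4 at 97.8% in muscle, Slc2a2 at 86.4% in liver and Slc2a1 at 59.4% in cortex. Slc2a3 held a further 39.6% in cortex. Heart and muscle forms of cytochrome oxidase subunits were unevenly replaced, with Cox6a2 at 97.4% ± 0.414 of its pair in muscle and Cox7a1 at 76.0% ± 2.01.

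**Figure D3:**
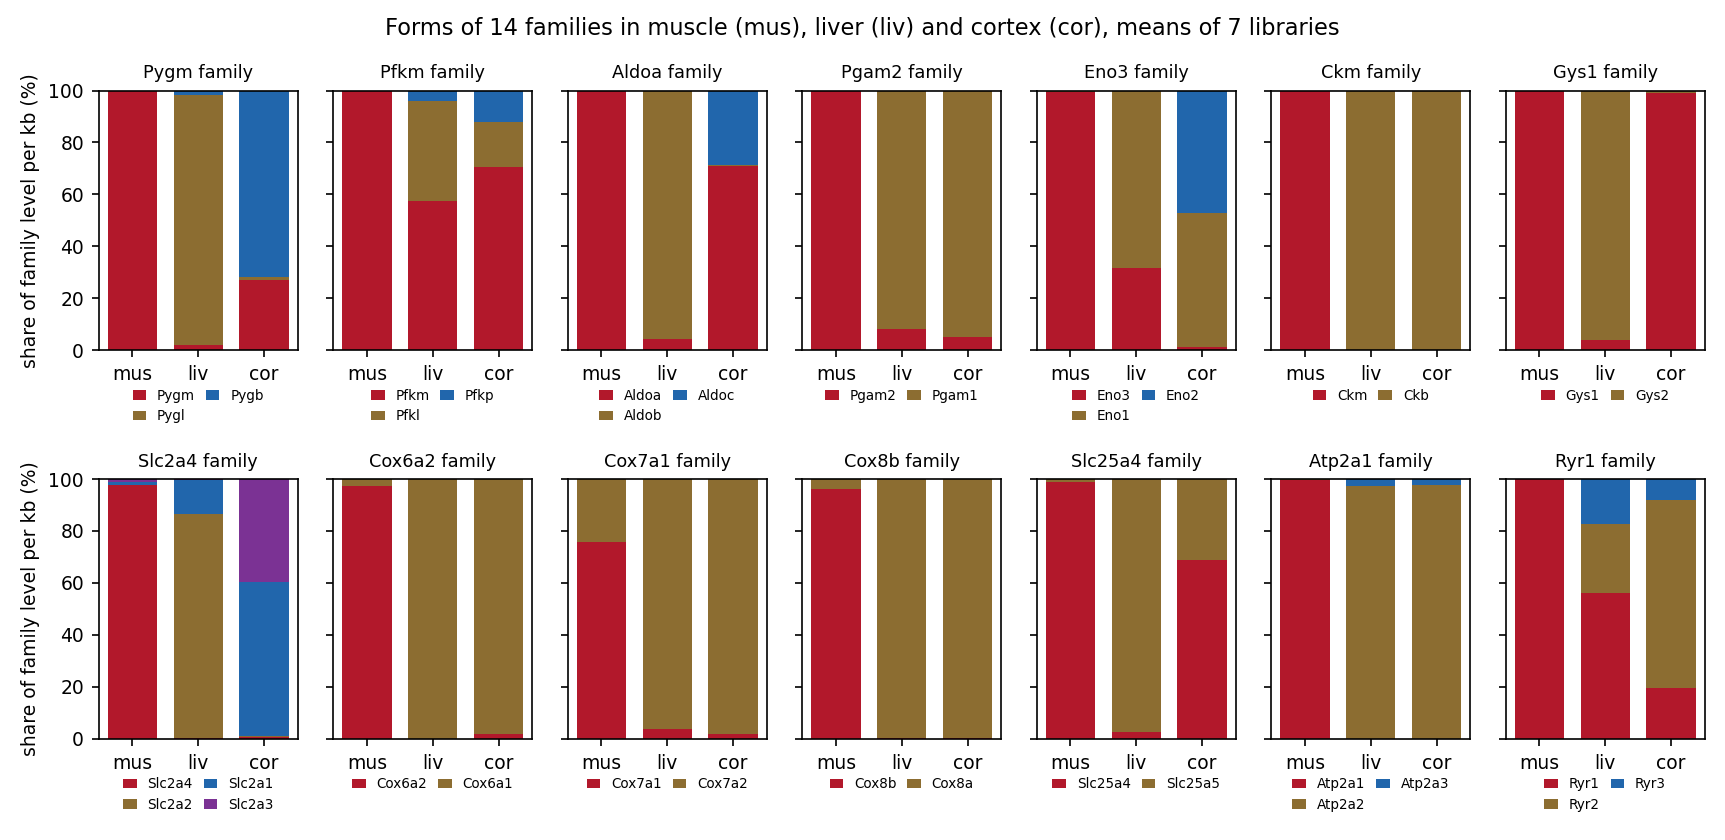
Share of each form in the summed level per kb of its family, in percent, for 14 families in muscle, liver and cortex, as stacked bars of the mean over 7 libraries. Red is the form known from muscle, which fills most of each muscle bar, while other forms fill most of the liver and cortex bars except for Pfkm, Gys1, Aldoa and Slc25a4 in at least 1 of these tissues and Ryr1 in liver, where the family is near 0.

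Fatty acid oxidation and mitochondrial genes were split, with 15 of 18 higher in both comparisons and 9 at least 8-fold, and smaller medians of 3.60 over liver and 4.33 over cortex. Cox6a2, a cytochrome oxidase subunit, had 1609 to 2375 CPM in muscle, at most 0.371 CPM in liver and 5.997 to 9.68 CPM in cortex, 15.15 ± 0.47 and 8.06 ± 0.32 higher on the log2 scale. Fabp3, which carries fatty acids in the cytosol, had 697 to 1698 CPM in muscle, at most 0.182 CPM in liver and 56.3 to 76.6 CPM in cortex. Ucp3, an uncoupling protein of the inner membrane, had 64.1 to 130 CPM against at most 0.176 and 2.25 CPM, and Pdk4, a kinase that restrains pyruvate dehydrogenase, 149.9 to 445 CPM against at most 15.6 and 5.88 CPM. Hadha and Hadhb, the subunits of the trifunctional protein of beta-oxidation, were also above liver (468.5 to 669 against 108 to 153 CPM, and 299.8 to 430.4 against 44.5 to 69.8 CPM). The 3 members not higher in both comparisons were near or below the level of liver. Acsl1, which activates long-chain fatty acids, had 146 to 208 CPM in muscle and 596 to 936 CPM in liver, and fell by 2.17 ± 0.12 on the log2 scale. Cpt2, the inner carnitine palmitoyltransferase, fell by 0.71 ± 0.13 (81.6 to 120 CPM against 130 to 192 CPM). Slc25a20, the carnitine carrier, overlapped liver (95.1 to 134 against 79.1 to 118 CPM). Its log2 fold change over liver was 0.18 ± 0.09 (adjusted p = 0.0795), 0.25 ± 0.10 without mouse 6 (adjusted p = 0.0249), and its sign turned with library totals (-0.01) and with a minimum of 10 counts in every muscle library (-0.10).

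Cpt1b, the muscle form of the outer carnitine palmitoyltransferase, was at 1.10 to 2.20 CPM in muscle, 283 reads in all. Per length it held 27.3% ± 4.62 of its family, against 40.9% ± 7.80 for Cpt1a and 31.8% ± 5.65 for Cpt1c. The shares of Cpt1b and Cpt1c do not differ beyond their spread. Cpt1b lies at chr15:89300608-89310066 on the minus strand of GRCm39. Gm44502 on the same strand spans all 9459 bases of it and has no muscle reads in the table. How reads shared by the 2 genes were treated is not stated, so this level is uncertain too.

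Neuromuscular junction genes are transcribed by the few nuclei under the synapse. Of 15 listed genes 14 were tested, 9 were higher in both comparisons and 7 at least 8-fold, with medians of 4.69 over liver and 3.44 over cortex. Chrna1, the alpha subunit of the acetylcholine receptor, had 10.2 to 17.9 CPM in muscle, no liver reads (at least 1044-fold) and 0.377 to 0.771 CPM in cortex. Chrne, the adult epsilon subunit, had 18.1 to 30.6 CPM against at most 1.48 and 0.139 CPM. Musk, the receptor kinase that clusters these receptors, had 2.88 to 6.23 CPM against at most 0.176 and 0.376 CPM, so that the ranges of all 3 genes lay apart. Chrng, the fetal gamma subunit, had too few reads to be tested (0 to 0.923 CPM in muscle). The 5 genes with roles at the synapse but wide use elsewhere that follow were not higher in both. Agrn, the nerve-derived organiser agrin, was at 9.70 to 13.7 CPM in muscle and fell by 2.90 ± 0.13 against liver and 3.05 ± 0.13 against cortex on the log2 scale. Lrp4, its receptor, fell by 0.54 ± 0.17 and 0.94 ± 0.17, and Utrn (utrophin) by 0.34 ± 0.10 and 0.83 ± 0.10. Etv5, a transcription factor of junction nuclei, was above liver and fell by 3.21 ± 0.17 against cortex. Ache, which breaks down acetylcholine, had 50.6 to 69.7 CPM in muscle and 44.6 to 64.5 CPM in cortex. The ranges overlapped, and the log2 fold change over cortex was 0.02 ± 0.15 (adjusted p = 0.919), with a sign that turned under other scalings and a called decrease of -1.03 ± 0.15 with library totals (adjusted p = 3.63e-06).

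In the dystrophin complex, which links the cytoskeleton to the matrix, and among membrane repair genes, 15 of 16 were higher in both comparisons and 9 at least 8-fold (medians 6.85 and 3.95). Sgca, alpha-sarcoglycan, was highest per length (213 ± 13.3 CPM per kb), with 342 to 398 CPM in muscle and at most 0.261 CPM in liver and 0.528 CPM in cortex. Cav3, the caveolin of muscle, had 98.7 to 125 CPM, no liver reads (at least 7730-fold) and at most 0.223 CPM in cortex. Dmd itself differed less, with 48.0 to 65.8 CPM in muscle, 21.8 to 24.7 CPM in liver and 16.9 to 22.8 CPM in cortex, and log2 fold changes of 1.22 ± 0.09 and 1.34 ± 0.09. Counts per gene do not separate its transcripts, several of which are known from other tissues. Sntb1, a syntrophin, was the exception at 1.56 to 4.76 CPM in muscle and 56.0 to 102 CPM in liver, against which it fell by 4.41 ± 0.17.

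Transcription factors of the muscle lineage had mean levels of at most 127 CPM per kb in muscle, that of Smyd1, a methyltransferase counted with them. Of 20 listed genes 19 were tested and 19 were higher in both comparisons, 13 of them at least 8-fold, with medians of 8.10 over liver and 6.63 over cortex. Pax3 had too few reads. Myf6, the myogenic factor of adult fibres, had 97.8 to 122 CPM in muscle (median 101), at most 0.201 CPM in liver and no read in cortex (at least 13910-fold). Myod1 had 41.3 to 58.1 CPM and no liver reads (at least 3356-fold), Myog 4.38 to 7.06 CPM, and Pax7, the marker of satellite cells, 2.55 to 3.53 CPM. Tbx15, a T-box factor of fast fibres, had 229 to 343 CPM, against at most 0.167 and 0.832 CPM (log2 fold change 12.79 ± 0.31 and 8.83 ± 0.23). Factors shared with other tissues moved less. Mef2c, a partner of the myogenic factors that cortical neurons also use, had 389 to 477 CPM in muscle and 188 to 277 CPM in cortex, and its log2 fold change over cortex of 0.84 ± 0.18 turned to -0.22 with library totals. Srf, the serum response factor, was 3.65 ± 0.12 and 2.41 ± 0.12 higher.

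Hox and other limb position factors, which keep the place along the body axis, were nearly silent in liver and cortex. Of 13 listed genes 11 were tested, and each was higher in both comparisons by at least 8-fold, with medians of 9.75 over liver and 12.14 over cortex (8.73 and 10.89 with genes without reads at their bounds). A gene passes the read filter here through muscle alone, so this count follows in part from the filter. Hoxc10 had 132 to 158 CPM in muscle (median 137), no read in liver (at least 10140-fold) and 1 read over the 7 cortex libraries. Tbx4, a hindlimb factor, had 1.34 to 2.34 CPM in muscle and at most 0.317 CPM elsewhere. Its forelimb counterpart Tbx5 was too low to be tested (0 to 1.33 CPM in muscle), as was Pitx1. Over all genes annotated as transcription factors, 60 of 1170 tested were at least 8-fold higher, beside 869 of all 19557 genes tested (4.44%). By family, those with the most were homeobox (27 of 94) and bHLH genes (9 of 81), while C2H2 zinc finger genes had 3 of 502. The read filter bears on these counts as on the list, since Hox genes without reads elsewhere enter through muscle alone, and no test was made on them.

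Secreted factors differed least, with 7 of 14 tested genes (of 15 listed) higher in both comparisons and 2 at least 8-fold, and medians of 2.32 over liver and 1.51 over cortex. Mstn (myostatin), the brake on muscle growth, had 42.8 to 61.0 CPM in muscle, no liver reads (at least 3901-fold) and at most 0.136 CPM in cortex. Ostn (musclin) had 9.17 to 60.7 CPM in muscle with no liver reads. Fndc5, the precursor of irisin, had 80.9 to 149 CPM in muscle and 49.3 to 64.9 CPM in cortex. Its log2 fold change over cortex was 0.94 ± 0.22 with TMM and -0.12 with library totals. The 7 genes not higher in both included Igf1, which fell by 5.50 ± 0.17 against liver (18.0 to 30.4 against 852 to 1315 CPM), and Bdnf, which fell by 5.13 ± 0.28 against cortex. Angptl4 and Vegfa were lower than in liver (-3.05 ± 0.37 and -1.55 ± 0.11), and Apln was lower than in cortex (-2.87 ± 0.30). Metrnl stood at -0.03 ± 0.17 over cortex and, with library totals, at -1.08 ± 0.18 (adjusted p = 2.00e-05), a called decrease. Fst stood at 0.07 ± 0.30 over liver, with a sign that turned under alternatives.

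All 25 ubiquitin ligase adaptors and chaperones of muscle were higher in both comparisons and 22 at least 8-fold (medians 10.85 over liver, or 9.64 with the 9 genes without liver reads at their bounds, and 8.39 over cortex). Trim63 (MuRF1), a ligase of sarcomere turnover, had 242 to 319.5 CPM in muscle, at most 0.132 CPM in liver and 0.153 CPM in cortex. Fbxo32 (atrogin-1) had 238 to 485 CPM against at most 2.89 and 13.5 CPM, and its range in muscle was wider. Asb2, an adaptor that targets filamin, had 1514 to 1882 CPM against at most 4.60 and 4.02 CPM. Of the small heat-shock proteins, Hspb7 varied most between muscles, from 235 to 1066 CPM, with at most 0.641 CPM in either other tissue.

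Within muscle the 7 libraries were alike for most of these genes. Over the 530 genes at least 8-fold higher with a mean of at least 10 CPM, the median SD of log2 CPM was 0.17. The largest SDs belonged to a small set, the slow-fibre genes Myh7, Myl3, Myl2, Tnnc1, Tnnt1 and Tnni1, with SDs from 2.19 to 3.07. Myh7 ran from 0.519 to 344 CPM (median 112), Myl2, the slow regulatory light chain, from 5.05 to 719.9 CPM, and Myl3, the slow essential light chain, from 5.02 to 1013 CPM. Mouse 8 was lowest and mouse 5 highest for 6 of 6 genes, with mouse 3 next to the top for each. The 6 genes summed to 20.9 CPM in mouse 8, 481 in mouse 4, 574 in mouse 7, 1127 in mouse 6, 1438 in mouse 2, 2278 in mouse 3 and 3205 in mouse 5. In mouse 8, Myh7 lay below the cortex libraries (5.61 to 8.86 CPM), and Tnnc1 (2.83 CPM) and Tnni1 (2.71 CPM) lay within the range of cortex, so that muscle and cortex overlapped for these 3 genes. Tnnc1 in mouse 8 also lay within the range of liver (0.763 to 3.21 CPM). The sum of the fibre markers, which include fast genes such as Myh4, differed far less. It ran from 205600 CPM in mouse 5 to 229500 in mouse 6, with mouse 8 at 210800. Which muscle or part of a muscle each library holds is not given, and its part in this spread was not tested.

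Plin1, Adipoq and Retn, genes of fat cells, came next in spread among these 530, with SDs of 1.46, 1.43 and 1.33. The 7 adipocyte markers were all higher in muscle than in both other tissues and 5 of them at least 8-fold. These genes thus belong to the set chosen here, although they are known as markers of fat cells and not of the fibre. Their sum in muscle ranged from 224 CPM in mouse 8 to 1009 CPM in mouse 2 (median 462), and mice 2 and 4 were the highest pair for each of the 7. Fabp4, also a gene of endothelium, made up the largest part of this sum at a mean of 319.7 CPM. Per length Cfd stood at 113.6 ± 96.7 CPM per kb (SD) and Fabp4 at 71.2 ± 27.9. No marker was at 0, and Adipoq, which encodes a hormone of fat cells, ran from 3.05 to 50.2 CPM. Liver summed to a median of 45.8 CPM, led by Cfd, and cortex to 1.18 CPM. The marker that leads a sum is the one with the most CPM, without regard to gene length. The order of mice by adipocyte sum differed from that by slow-fibre sum, and the part of adipose tissue in the comparison of tissues was not tested.

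**Figure D4:**
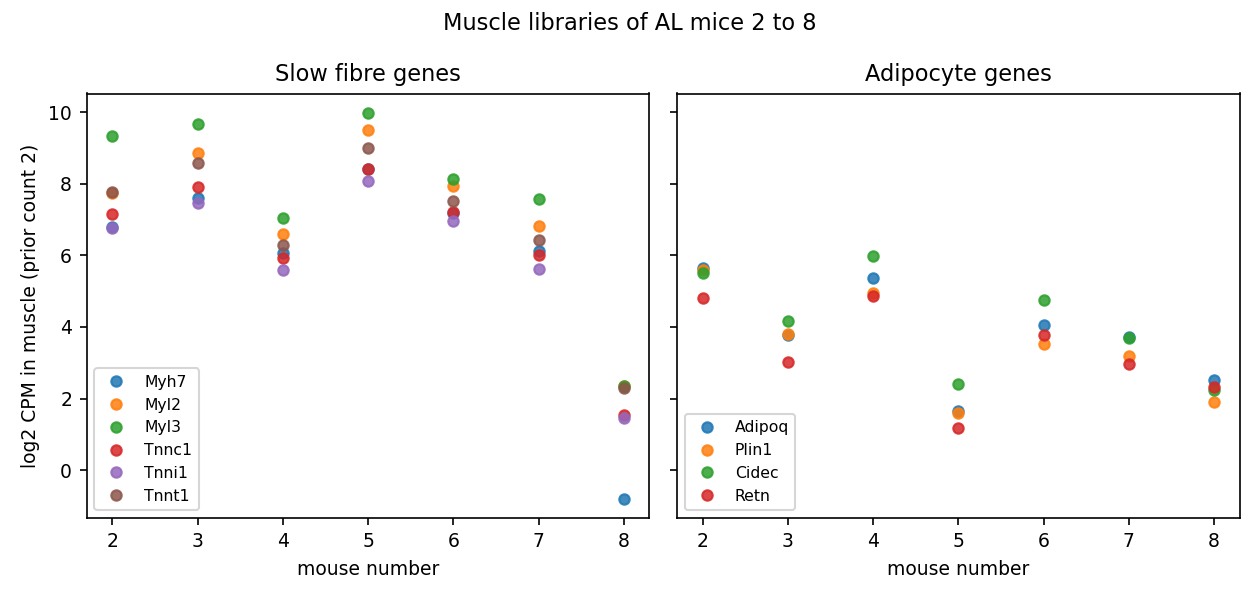
Log2 CPM (prior count 2) of 6 slow-fibre genes (left) and 4 adipocyte genes (right) in the 7 muscle libraries, by mouse number, 1 point per gene and library. Mouse 8 is lowest for each slow-fibre gene and mouse 5 highest, and mice 2 and 4 are highest for each adipocyte gene shown.

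Other cell types of muscle were read from their markers in the same way. Over all genes tested, 22.3% were higher in both comparisons and 4.44% at least 8-fold. Of the 3 satellite cell markers tested, 3 were at least 8-fold higher in both comparisons, with a median sum of 39.9 CPM led by Cdh15. For endothelium 5 of 6 markers were higher in both and none 8-fold (median sum 299 CPM in muscle, 143 in liver and 73.8 in cortex, led by Egfl7 in each). For fibroblasts and tendon 6 of 7 were higher in both and 2 at least 8-fold (635, 113 and 33.98 CPM, led in muscle by Dcn), and for smooth muscle 4 of 4 and none 8-fold (103, 11.4 and 27.8 CPM, led by Acta2). Erythrocyte markers were at 462 CPM in muscle and 613 CPM in liver (medians). Of these 5, 2 were higher in both and 3 were lower than in liver. Leukocyte markers were lower in muscle (27.8 CPM) than in liver (45.5) or cortex (63.3) by median sum, and 1 of 5 was higher in both. Of the cardiac (4 of 5 tested), epidermal (1 of 3) and brown adipocyte (1 of 2) markers none was higher in both, with median sums of 7.06, 3.75 and 1.10 CPM in muscle. The part of these cells in the fold changes was not tested.

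Not all genes in the set code for proteins. Of the 869 genes, 606 were protein coding (of 15581 tested), 179 lncRNAs (of 2467), 60 processed pseudogenes (of 717) and 5 miRNA genes (of 26). Their median length was 2566 bases against 3703 for all genes tested. H19, an imprinted lncRNA, had 227 to 518 CPM in muscle, and Nctc1, a lncRNA from the neighbouring stretch of chromosome 7, 208 to 266.5 CPM, with liver and cortex means of at most 0.292 CPM for both. The processed pseudogene Mylf-ps had 386 to 516 CPM, and since the treatment of reads that fit more than 1 place is not stated, its level is uncertain. Mir133a-2, the locus of a muscle miRNA, had 11.4 to 25.7 CPM and no reads elsewhere, from libraries made of poly-A RNA. These 4 were chosen after their values were seen.

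The comparison was repeated in mice that did not choose the genes. In male IF mice 4174 of 19391 genes tested were higher in both comparisons (21.5%) and 809 at least 8-fold (4.17%), and 708 of these were among the 869, which is 81.5% of the AL set and 87.5% of the IF set. Female AL mice gave 4278 of 19580 (21.8%) and 764 (3.9%), with 668 shared, 76.9% of the male AL set and 87.4% of the female one. Female IF mice gave 4377 of 19563 (22.4%) and 802 (4.1%), with 691 shared, 79.5% and 86.2%. In all 4 sets 590 genes were at least 8-fold higher. In no other set were 19 of the 869 at that size, among them Hoxa11 and Hoxa13. Hoxa11 ran from 0.432 to 6.88 CPM over the 7 muscles and Hoxa13 from 0.432 to 5.06 CPM, with mouse 3 highest and mouse 5 next for both. In male AL mouse 1, muscle was above both other tissues for 869 of the 869 genes and for 4212 of the 4365.

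Between the diets, muscle genes were compared within each sex. In female muscle 1 of 15308 genes tested was higher with IF (0.00653%) and 0 were lower (0%) by edgeR. The 1 gene was Rn18s-rs5, related to ribosomal RNA, at 1.0026 ± 0.12 on the log2 scale (adjusted p = 0.00204, 8 libraries per diet). By unadjusted p under 0.05 there were 780 higher and 864 lower, and DESeq2 called 55 and 36. Of 850 tested genes of the 8-fold set, 0 were called in either direction by edgeR, 89 higher and 23 lower by unadjusted p, and 5 and 4 by DESeq2. In male muscle 1510 of 15242 genes (9.91%) were higher and 1462 (9.59%) lower with IF. Of the 869 genes 79 (9.09%) were higher and 176 (20.3%) lower, with a median log2 fold change of -0.11, against 0.01 over all genes tested. The male AL libraries are those that chose these genes. In the muscle library of IF mouse 12, the 869 genes took 46.71% of counts without mitochondrially encoded genes. The other male IF muscle libraries gave 49.73% to 53.15%, and those of the male AL mice 50.34% to 52.11%. The part of the mouse 12 library in the diet comparison was not tested. The set includes 5 of the 7 adipocyte markers, all but Cidec and Cfd. In male muscle 5 of the 7 were called higher with IF, and Cidec and Cfd were among them. Those called within the set were Fabp4 by 1.80 ± 0.36 on the log2 scale (adjusted p = 0.00372), Retn by 2.18 ± 0.59 (adjusted p = 0.0206) and Adipoq by 2.15 ± 0.67 (adjusted p = 0.0384), but not Plin1 (2.13 ± 0.74, adjusted p = 0.0613). Lep, also in the set, had the opposite direction (-1.38 ± 0.74, adjusted p = 0.217). Of the 7 fibroblast and tendon markers 4 were called lower with IF (Col1a1, which is in the 8-fold set, Col3a1, Tnmd and Scx). The other markers called in male muscle were Cidea of brown fat and Alb and Cyp2e1 of hepatocytes, which were higher, and Mylpf of fibres, Kdr of endothelium and Cd3e of leukocytes, which were lower. In female muscle Alb was not tested and none of the others was called, and the part of other cell types in the diet comparison was not tested. With the genes at least 8-fold higher in female AL mice instead, a set chosen after seeing the data, 83 (11%) of 756 were higher and 147 (19.4%) lower in male muscle, with a median of -0.08. The difference in response between the sexes was not tested.

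Promoters of the 8-fold genes were searched for short motifs, as genes that share a pattern across tissues. RefSeq promoters, from 250 bases before to 50 after the start of a gene, in a table on build GRCm38.p6, matched 545 of the 869 genes by symbol (691 promoters), and 32851 promoters in the table served as reference. On either strand, the E-box CAGCTG was found in 24.7% of the 691 and 16.3% of all promoters, the wider CANNTG, which includes it, in 75.5% and 72.3%, the TATA string TATAAA in 15.6% and 13.6%, and the MCAT string CATTCC in 19.1% and 14.7%. Over the 17081 promoters of genes tested here the shares were 16.3%, 66.1%, 8.48% and 12.8%. Any of 4 strings of the MEF2 motif, some of which hold TATAAA within them, was in 2.89% of the 691 (20 promoters of 18 genes), 0.445% of those of tested genes and 0.457% of all. The CArG string searched was in 0% of the 691 and in 0.0639% of all. A match describes the letters in the window, and no binding was measured. Below are the 180 bases upstream of 2 genes of the ubiquitin and chaperone list, shown because their windows hold a MEF2 string and lie outside annotated exons. They were chosen after the matches were seen. Asb18 lies on the minus strand, with its window, found once and unchanged in GRCm39, at chr1:89942389-89942568, and had 21.5 to 30.4 CPM in muscle, no liver reads and at most 1.03 CPM in cortex. Hspb3, also on the minus strand, with its window at chr13:113800213-113800392, had 37.01 to 51.1 CPM, no liver reads and at most 2.17 CPM. Capitals mark the MEF2 string in each, with TATAAA within it on either strand, and CAGCTG in the first.
Asb18: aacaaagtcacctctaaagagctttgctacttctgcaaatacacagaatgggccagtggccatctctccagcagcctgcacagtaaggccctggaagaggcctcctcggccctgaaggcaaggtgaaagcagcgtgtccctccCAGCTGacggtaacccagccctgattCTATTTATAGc
Hspb3: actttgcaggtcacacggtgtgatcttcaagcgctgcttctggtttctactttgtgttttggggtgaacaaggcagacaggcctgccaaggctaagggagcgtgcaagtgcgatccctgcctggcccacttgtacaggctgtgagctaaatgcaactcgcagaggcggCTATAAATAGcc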

How the data were processed

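The deposited values are raw read counts per gene. Per the labels, poly-A RNA was made into stranded libraries, sequenced on an Illumina NovaSeq, aligned to GRCm39 with HISAT2 and counted by the authors, without a stated setting for strand or for reads with several places. The authors' table also gives the gene length in bases, which was used for CPM per kb and for nothing else. Counts of the 21 libraries were tested in R 4.3.3 with edgeR 4.0.16 (TMM scaling, quasi-likelihood fit with robust dispersion, terms for tissue and mouse number), after the edgeR filter with a minimum count of 10 and a minimum total of 15. Adjusted p-values are Benjamini-Hochberg values over all genes tested, called at 0.05, and ± after a log2 fold change is its SE. Male IF and both female groups were fitted the same way with 8 mouse numbers each, and diet was compared in muscle within each sex, without mouse number as a term. Alternatives were other scalings, other filters, no term for mouse number, all 8 male AL mice, each mouse left out, and DESeq2 1.42.0 in place of edgeR. DESeq2 for diet and the genes chosen in female AL mice were added after seeing the data. Figures were drawn with Python 3.11.15 and matplotlib 3.10.9.

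The 12 gene lists covered thick filament and M-band, thin filament, Z-disc, excitation-contraction coupling, phosphagen with glycogen and glycolysis, fatty acid oxidation with mitochondria, neuromuscular junction, dystrophin complex, myogenic transcription factors, limb position, secreted factors, and ubiquitin ligase adaptors with chaperones. The 15 marker lists covered cell types of the 3 tissues, not all of which are described. Of 229 list members 224 were tested, 203 were higher in both comparisons and 166 at least 8-fold. Members and lists were chosen with earlier results of these data known. Genes named beyond them were mainly the 10 highest per kb among protein-coding genes at least 8-fold higher, by smaller fold change (over 3 reads in each tissue) and by spread in muscle, and the forms in enzyme families. The genes nearest the 8-fold limit, those 8-fold in no other set, the gene called in female muscle and the noncoding genes were picked from the results. Mouse numbers are taken as separate animals, as labelled. Bounds against a tissue at 0 cover counting error only. Some genes are not reported here.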

Additional observations from a re-analysis of the deposited data

Results flagged for a closer look

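Among 260 groups of 7 libraries (named genes, list sums and marker sums in each tissue), 22 held a library whose gap to its nearest neighbour was a larger share of the range than Dixon's limit, which chance exceeds in about 1 in 20 groups. In muscle, mouse 2 was highest for Ckmt2 (1834 CPM), Myh1 (3213), Slc25a20 (134), the brown adipocyte markers (6.24) and the erythrocyte markers (1170). Mouse 8 was highest for Ampd1 (1688), Dmd (65.8) and Mef2c (477), mouse 6 for Chrne (30.6) and Ache (69.7), and mouse 3 for the smooth muscle markers (142.5). In liver, Cryab was highest in mouse 7 (11.4 CPM) and Eno3 lowest in mouse 2 (17.4), and mouse 6 was highest for the dystrophin list (202) and the neuron markers (8.06). In cortex, mouse 5 was highest for Retn (1.85 CPM), the adipocyte markers (1.89) and the brown adipocyte markers (2.90). Mouse 7 was highest there for Myh6 (2.18) and Agrn (110.3), mouse 8 for Bdnf (25.7), and mouse 2 lowest for the ubiquitin and chaperone list (51.7).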

How the results depend on the processing

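Of 2846 alternative values for 190 fold changes of 95 named genes under 15 settings, 2814 kept their direction and side of the threshold. Another 24 reversed, 4 became stronger and 4 weaker. Of the counts and shares 290 stayed, 9 became stronger, 2 weaker and 3 moved. A count stayed if its ratio to the main value was within a fixed limit, which does not mean that it was unchanged. The 869 genes at least 8-fold higher thus count as stayed at 631 with library totals (72.6% of them shared) and at 1272 without a filter. Library totals without scaling gave 3628 genes higher than cortex and 2466 higher in both (631 at least 8-fold), and reversed the log2 fold change over cortex of Myh6 (-0.17), Tpm3 (-0.61), Pln (-0.43), Ache (-1.03), Mef2c (-0.22), Fndc5 (-0.12) and Fst (-0.18), and over liver of Slc25a20 (-0.0135) and Fst (-0.14). A minimum of 10 counts in every muscle library, which keeps fewer genes, reversed Slc25a20 (-0.10) and Fst (-0.21) over liver and Ache (-0.23) over cortex, and left 767 genes at least 8-fold higher. Ache over cortex was also reversed with RLE size factors (-0.0015), DESeq2 (-0.0014), no filter beyond 1 count (-0.0634) and all 8 male AL mice (-0.0094). With each mouse left out in turn, the counts ranged over 7564 to 7680 (higher than liver), 6640 to 6788 (cortex), 4195 to 4271 (both) and 870 to 878 (8-fold), and the log2 fold changes that crossed 0 ranged from -0.53 to 0.11 (Pln over liver), -0.12 to 0.26 (Fst over liver), -0.0313 to 0.0878 (Ache over cortex) and -0.10 to 0.0853 (Metrnl over cortex). Without a filter beyond 1 count, 1272 of 37493 genes were at least 8-fold higher (855 shared), and 1262 (male IF), 1331 (female AL) and 1515 genes (female IF) in the other sets, since more genes were tested, and female mice had 2 genes higher and 3 lower with IF. DESeq2 gave 55 and 36 there, and 5 and 4 of the 8-fold genes. Without mitochondrially encoded genes, the 8-fold genes took 51.4%, 0.414% and 1.27% of counts in muscle, liver and cortex. Without the block for mouse number, 842 genes were at least 8-fold higher (840 shared) and 4398 higher in both, and Myh3 over cortex was at -0.82 and no longer called. The pairing was not seen in the data, as libraries of a shared number had median correlations of 0.0012 (muscle and liver), 0.0394 (muscle and cortex) and 0.0122 (liver and cortex), and 1, 3 and 0 of 7 fitted their own number best. The cause was not tested for the other reversals. Depth sets a floor of 0.0155 CPM in muscle, 0.0140 in liver and 0.00764 in cortex for 3 counts.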
